A study of Mus musculus with 4 samples.

Results

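The genes described are the splicing factors of the SR, hnRNP and snRNP families together with the U2 factors and the polypyrimidine tract binding proteins. They were taken as every protein_coding gene whose symbol begins with Srsf, Hnrnp, Snrp, Sf3a, Sf3b, U2af or Ptbp, which gave 58 of the 37646 genes listed. The 58 are 20 Hnrnp, 11 Srsf, 12 Snrp, 9 Sf3, 3 U2af and 3 Ptbp genes. Their mRNA was measured in 4 libraries of 1 group, splenic cells positive for B220 and YFP, sorted after dead cells were left out, from C57BL/6 mice of genotype YFPstopF/+; Cg1Cre/+, labelled normal control. In these mice Cre driven from the Cg1 (Ighg1) locus switches on a YFP reporter for good, so that cells which have left the germinal centre also carry it. Sheep red blood cells had been given in 2 injections, 20 days from the first to the second, and the spleen was collected 10 days later. The lymphoma samples that the design text names were not analysed here, and there is no second group, so levels are compared between genes within a library and between libraries numbered 1 to 4. Age, sex and the number of animals per library are not stated in the labels. The spread between libraries may therefore be technical in part.

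Splicing removes introns from the primary transcript in the spliceosome, which is built from small nuclear RNAs and their bound proteins. The U1 particle marks the 5′ splice site, the U2AF dimer reads the pyrimidine tract and the AG at the 3′ splice site, and the U2 particle, with its SF3A and SF3B complexes, then takes hold of the branch point. SR proteins bind exons and as a rule promote their inclusion, whereas many hnRNP proteins, PTB proteins among them, bind silencer sequences and promote skipping. In B cells such choices set the isoform of CD45, of which B220 is the longest form and which the Ptprc gene encodes, and the change from membrane to secreted immunoglobulin. Ptbp1 has been reported to be required for germinal centre responses in mice.

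Libraries held between 13777954 and 14629025 counts. The B cell gene Cd79b (1399 ± 209.6 TPM, the count per length scaled to 1 total in each library, mean ± SD, n = 4) and the germinal centre genes Mef2b (512 ± 73.6 TPM) and Bcl6 (71.8 ± 24.5 TPM) were present in every library, as the label states. All 8 T cell marker genes and all 4 macrophage marker genes also exceeded 1 TPM in every library. Library 3 alone carried the Y-linked Ddx3y transcript, at 1307 counts against at most 3 in the others. In bulk RNA, fewer cells of a type and less RNA per cell cannot be told apart.

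Because many splicing factor genes have processed copies elsewhere in the genome, or lie across a neighbouring gene, the sequence that each gene shares with others was measured first. Every stretch of 50 bases (the read length) in the GENCODE transcripts of a gene was looked up, on both strands, in the transcripts of all other genes. A read from a shared stretch cannot be given to 1 gene by sequence alone. The following pairs of coding stretches, read from GENCODE M21 transcripts (GRCm38, the assembly also named mm10), show the contrast for 2 hnRNP genes that share sequence mostly with pseudogenes. The first of each pair is a coding stretch, within 1 exon, that several other genes hold. The second is the nearest one that no other gene holds. Not every shared stretch was a candidate for the first, so others may be held by more genes. Hnrnpa1 lies on chromosome 15, 103240432 to 103246692, plus strand, and Hnrnpf on chromosome 6, 117900324 to 117925622, plus strand. The Hnrnpa1 stretches are in exons 3 and 8, and both Hnrnpf stretches are in exon 4.
Hnrnpa1, shared with 7 pseudogenes (chr15:103241500-103241549): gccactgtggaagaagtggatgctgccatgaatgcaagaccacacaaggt
Hnrnpa1, in no other gene (chr15:103242922-103242971): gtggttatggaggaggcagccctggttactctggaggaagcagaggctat
Hnrnpf, shared with 8 other genes, 6 of them pseudogenes (chr6:117924559-117924608): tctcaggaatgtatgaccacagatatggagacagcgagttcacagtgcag
Hnrnpf, in no other gene (chr6:117924850-117924899): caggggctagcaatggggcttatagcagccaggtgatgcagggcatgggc

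The median splicing factor gene had 94.7% of its 50-base stretches to itself, against 99.6% for the median protein_coding gene. Of the 58 genes, 12 (20.7%) kept less than 80%, against 10.9% of protein_coding genes. The lowest shares were those of Snrpf (10.5%), Hnrnpf (38.1%), Sf3b4 (54.7%), U2af1l4 (57.6%) and Srsf4 (60.5%). The copies differed in kind. Hnrnpa1 (71.8% own sequence) shared stretches with 19 pseudogenes and Hnrnpa3 (72.9%) with 41. Snrpf shared 58.5% of its stretches with Ccdc38, a protein_coding neighbour on chromosome 10, and Hnrnpab (76.2%) shared 23.7% with its neighbour Phykpl on chromosome 11. Of these pseudogenes, the 18 of Hnrnpa1 listed in the count tables had at most 7 counts in a library, and the 39 of Hnrnpa3 listed there at most 12. The treatment of such reads in counting is unknown here, and levels of these 12 genes are uncertain.

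**Figure D1:**
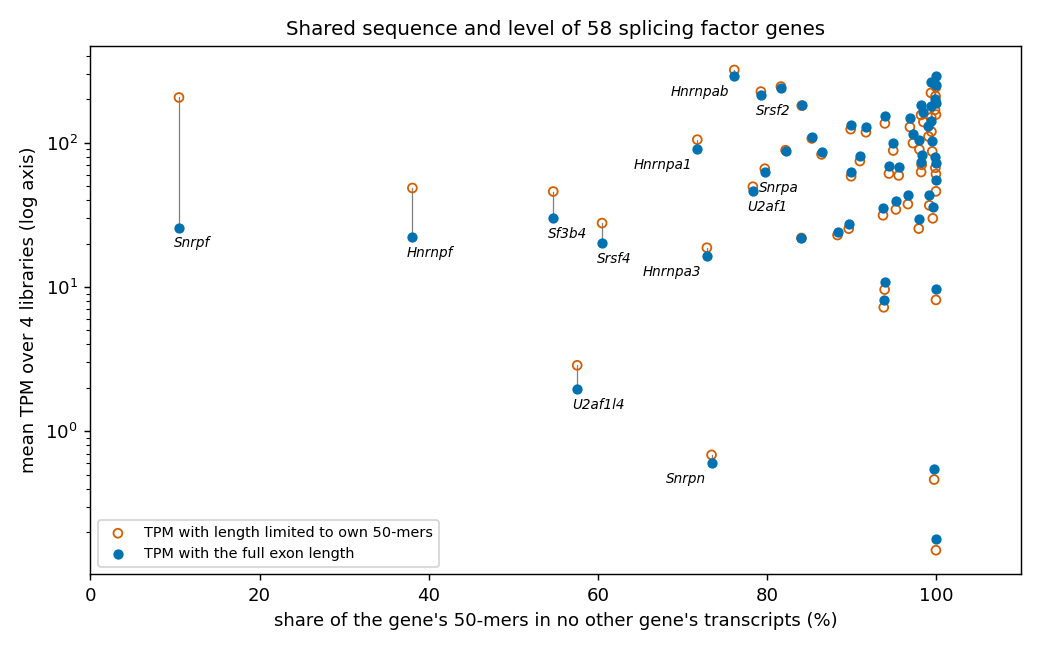
Share of each gene's 50-base stretches found in no other gene's transcripts (x axis, %) against its mean TPM over 4 libraries (y axis, log scale). Filled points use the full exon length, open points the part of it that is the gene's own, and the 12 genes under 80% are named, with Snrpf moving furthest between the 2 scales.

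Together the 58 genes took 1.22% ± 0.145 (SD, n = 4) of all counts. The share was 1.17, 1.04, 1.38 and 1.28% in libraries 1, 2, 3 and 4. Of the 58 genes, 54 exceeded 1 TPM in every library, 51 exceeded 10 TPM and 17 exceeded 100 TPM. The 4 that did not exceed 1 TPM in every library were Srsf12, Hnrnpll, Snrpn and U2af1l4. A filter on low counts, edgeR's filterByExpr, was passed by 56 genes, all but Srsf12 and Snrpn. The median of log2(TPM + 1) over the 58 genes was 6.27 ± 0.21, against 3.83 ± 0.13 over all genes that passed the filter.

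**Figure D2:**
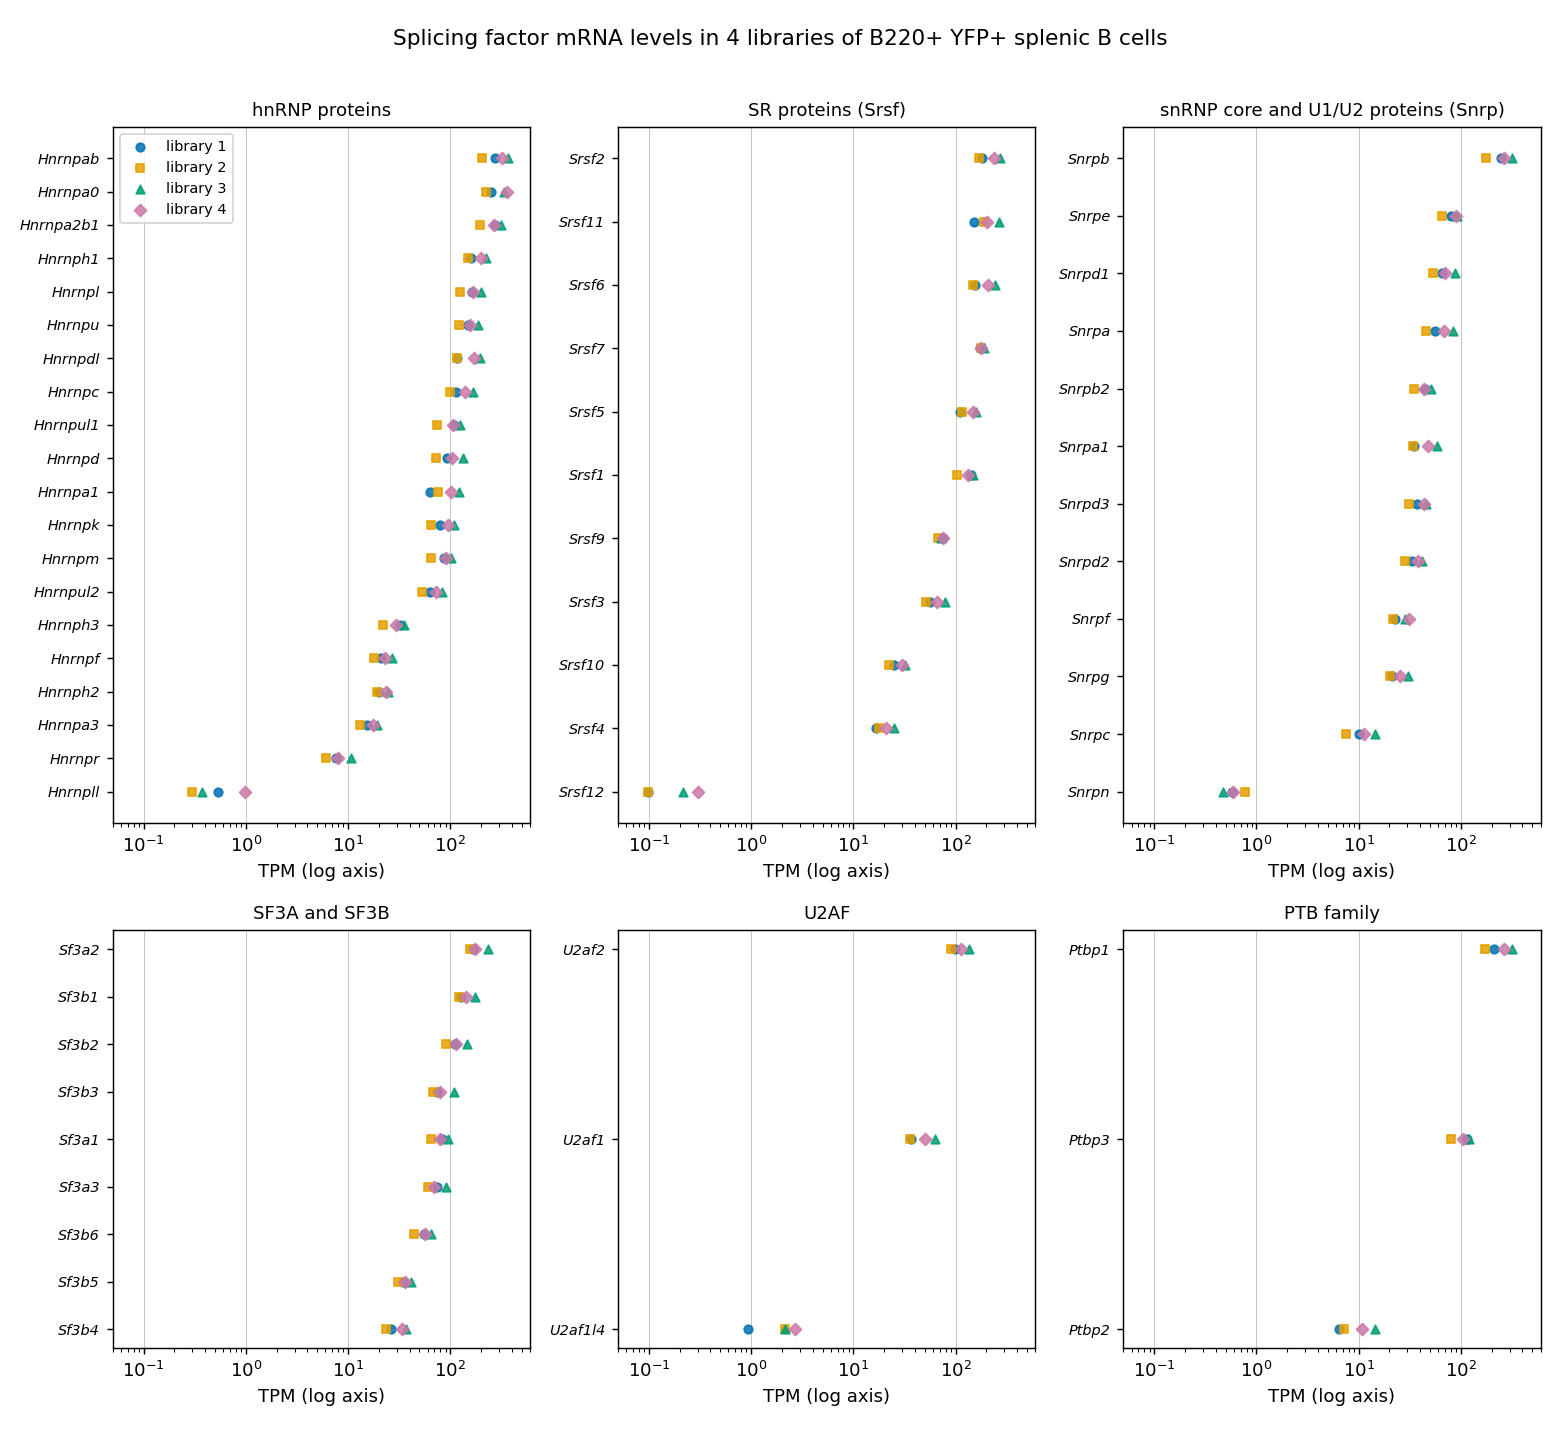
TPM (x axis, log scale) of all 58 genes in each of 4 libraries (1 symbol per library), by family. All but 4 genes stand above 1 TPM in every library. In TPM, scaled to 1 total in each library without further factors, library 2 is the lowest for most genes and library 3 the highest. The share of all genes with this order was not computed in TPM, and the order of a gene can differ in normalised CPM.

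SR proteins are the exon-binding activators, named for their arginine and serine rich domain. Of the 11 Srsf genes, 10 exceeded 10 TPM in every library. Srsf2, which binds exonic enhancers, had the highest mean, with 181, 169, 273 and 237 TPM in libraries 1, 2, 3 and 4. Srsf11, an SR-related protein, stood at 151, 189, 269 and 201 TPM in the same order. Srsf6 stood at 155, 148, 241 and 207 TPM. In library 2 Srsf2 lay below Srsf11. In all 3 genes library 3 was highest, and libraries 1 and 2 were the lower pair. Srsf7, which also takes part in mRNA export, differed little, at 172, 176, 190.1 and 177 TPM. Srsf1, a founding member of the family, stood at 141, 102, 149 and 132 TPM and its close relative Srsf9 at 75.9, 67.1, 72.6 and 75.05 TPM. Srsf1 exceeded Srsf9 in every library, by 0.83 ± 0.18 on the log2(TPM + 1) scale. Srsf3, the smallest SR protein, was lower at 56.4, 51.4, 79.00 and 65.5 TPM, and lay below its relative Srsf7 in every library, the difference of Srsf3 minus Srsf7 being -1.51 ± 0.22 log2. Srsf5 averaged 134 ± 23.7 TPM and Srsf10, which acts as a repressor when it loses its phosphates, 27.2 ± 4.39 TPM. Srsf4 stood at 16.6, 17.9, 24.9 and 20.9 TPM, and Srsf4 minus its relative Srsf6 was -3.15 ± 0.12 log2. Srsf4 shares 39.5% of its stretches with an overlapping noncoding gene, Gm12992, and the part of this in the difference was not tested; with lengths limited to own sequence Srsf4 averaged 27.8 ± 5.25 TPM. Srsf12 had 2, 2, 4 and 6 counts, about the 3 counts that are taken as the limit of detection, and averaged 0.178 ± 0.0988 TPM.

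The hnRNP proteins coat nascent RNA, and the family gave the largest part of the splicing factor counts, 45.6%, or 0.555% ± 0.0743 of all counts. The highest was Hnrnpab (chromosome 11, 51600100 to 51606847), at 272, 204, 371 and 319.7 TPM. Hnrnpa0, an AU-rich element binding protein, stood at 249.5, 223, 334 and 357 TPM and Hnrnpa2b1, which also carries RNA in the cytoplasm, at 272, 198, 315 and 271 TPM. These 3 levels overlapped between libraries, and their order was not fixed. With the longest annotated transcript as length, Srsf11 (476 ± 109 TPM) and Hnrnpa2b1 (412 ± 70.8 TPM) led all 58 genes and Hnrnpab came in place 5 behind Hnrnpl (316 ± 54.6 TPM) and Ptbp1 (309.8 ± 76.2 TPM). Hnrnpa1, the classical silencer-binding repressor of exons, stood at 63.1, 75.8, 121 and 101.4 TPM. Hnrnpa2b1 exceeded Hnrnpa1 by 1.56 ± 0.35 log2, with library 1 apart at 2.09 and the others between 1.37 and 1.41. With lengths limited to own sequence the Hnrnpa1 level was 105.3 ± 30.8 TPM and that of Hnrnpa2b1 222 ± 42.4 TPM.

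Hnrnpl and Hnrnpll were compared because both act on Ptprc. Hnrnpl binds CA-rich RNA and represses the variable exons of Ptprc, and Hnrnpll, which does the same in activated and memory T cells, rises in plasma cells. Hnrnpl (chromosome 7, 28808541 to 28822266) stood at 162, 126, 201 and 168 TPM and Hnrnpll (chromosome 17, 80029487 to 80062334) at 0.532, 0.301, 0.377 and 0.987 TPM, from 40, 23, 26 and 73 counts. Hnrnpl exceeded Hnrnpll by 6.74 ± 0.33 log2. Nearly all of both sequences is their own, 98.5% for Hnrnpl and 99.8% for Hnrnpll. Library 4 had the highest Hnrnpll count and library 2 the lowest. The summed normalised level of 5 plasma cell markers, without Tnfrsf17, which did not pass the filter on low counts, was 2416, 2570.2, 1149.96 and 2241 normalised CPM (counts scaled to library size) in libraries 1 to 4, and that of 8 T cell markers 304, 151, 99.96 and 242 CPM. The part of plasma cells and T cells in the Hnrnpll level was not tested. Ptprc itself stood at 123 ± 15.9 TPM, and its isoforms cannot be told apart in gene counts.

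Among the remaining hnRNP genes, Hnrnph1, which binds runs of G, stood at 159.6, 151, 222 and 201 TPM and its X-linked relative Hnrnph2 at 20.3, 19.1, 24.9 and 23.8 TPM, a difference of 2.99 ± 0.09 log2. Hnrnpf of the same subfamily averaged 22.1 ± 3.69 TPM, or 48.6 ± 8.43 TPM with the length limited to own sequence. Hnrnpdl stood at 116, 116, 195 and 170.1 TPM and Hnrnpd, which marks AU-rich mRNAs for decay, at 93.05, 72.1, 133 and 104 TPM. Hnrnpd minus Hnrnpdl was -0.56 ± 0.18 log2, negative in every library, but without gene length it was 0.042 ± 0.18, so the order of the pair depends on length. Hnrnpu, a scaffold protein that binds both chromatin and RNA, averaged 153 ± 27.5 TPM, Hnrnpc, which binds uridine tracts, 129.9 ± 30.4 TPM, and Hnrnpk, which binds cytidine tracts, 87.4 ± 19.1 TPM. Hnrnpul1 averaged 104 ± 21.5 TPM, Hnrnpm 85.9 ± 15.6 TPM, Hnrnpul2 67.9 ± 12.4 TPM and Hnrnph3 29.8 ± 5.88 TPM. Hnrnpa3 averaged 16.3 ± 2.73 TPM and Hnrnpr 8.11 ± 1.94 TPM. Hnrnpr has the longest exon union of the 58 genes, 22199 bases.

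Ptbp1 binds pyrimidine tracts and represses exons, among them one in the Ptbp2 transcript whose skipping leads to its decay. Ptbp1 (chromosome 10, 79854427 to 79864771) stood at 209.6, 172, 315 and 264 TPM, Ptbp3, a relative expressed in blood cells, at 115, 80.7, 121 and 104.8 TPM, and Ptbp2, the neural form, at 6.47, 7.23, 14.4 and 10.8 TPM. The 3 ranges did not overlap. Ptbp1 exceeded Ptbp3 by 1.16 ± 0.24 log2 and Ptbp2 by 4.51 ± 0.21 log2, the mean TPM of Ptbp1 being 24.7 times that of Ptbp2. Without gene length the difference of Ptbp1 minus Ptbp2 was 3.67 log2. Ptbp2 was nevertheless measured from 382, 434, 779 and 628 counts, with library 3 highest. The neuronal markers Snap25 (0.105 ± 0.0557 TPM) and Rbfox3 (0.121 ± 0.0830 TPM) were near 0, and Tubb3, the remaining gene of that list, stood at 3.004 ± 0.925 TPM.

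Sm proteins form the ring around the small nuclear RNAs in which each has a single place. The 7 Sm genes outside Snrpn nevertheless ranged over an order of magnitude in mRNA. Snrpb (chromosome 2, 130171414 to 130179403), which encodes SmB, stood at 246, 177, 319 and 266 TPM. Snrpe averaged 81.4 ± 12.5 TPM, Snrpd1 69.2 ± 14.1 TPM, Snrpd3 39.3 ± 6.34 TPM, Snrpd2 35.2 ± 5.79 TPM, Snrpf 25.8 ± 4.36 TPM and Snrpg 24.2 ± 4.58 TPM. With the full exon length Snrpb exceeded the other 6 in every library. The value of Snrpf rests on 122 to 168 counts over a gene of which 10.5% is its own sequence, and with the length limited to that part it was 207 ± 36.7 TPM, which moves it from place 46 to place 7 among the 58. Snrpn, the imprinted SmN gene of neurons that replaces SmB there, had 8, 11, 6 and 8 counts, or 0.575, 0.779, 0.471 and 0.585 TPM. Snrpb exceeded Snrpn by 7.27 ± 0.46 log2. Of the proteins particular to the U1 particle, Snrpa averaged 63.1 ± 15.97 TPM and Snrpc 10.8 ± 2.85 TPM. Of those of the U2 particle, Snrpb2 averaged 43.7 ± 6.71 TPM and Snrpa1 43.4 ± 11.5 TPM.

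The SF3A and SF3B complexes hold the branch point, and all 9 of their genes exceeded 10 TPM in every library. Sf3a2 had the highest mean, with 165, 156, 235 and 173 TPM. With the longest transcript as length Sf3b1 (226 ± 33.6 TPM) and Sf3b2 (212 ± 36.6 TPM) exceeded Sf3a2 (189 ± 34.2 TPM). Sf3b1 (chromosome 1, 54985169 to 55027481), the subunit that clamps the branch helix and is recurrently mutated in human chronic lymphocytic leukaemia, stood at 128, 122, 175 and 144 TPM. Sf3b2 stood at 113, 91.4, 144 and 115 TPM and the lowest, Sf3b4, at 26.4, 23.5, 36.9 and 33.4 TPM. For Sf3b4 43.6% of stretches also lie in the pseudogene Gm7935, and with the length limited to own sequence Sf3b4 averaged 45.98 ± 9.81 TPM and Sf3b5, then the lowest, 29.9 ± 3.91 TPM. Sf3b3 averaged 82.8 ± 17.6 TPM, Sf3a1 80.3 ± 12.5 TPM, Sf3a3 73.7 ± 13.1 TPM, Sf3b6, which touches the branch point, 55.1 ± 8.28 TPM and Sf3b5 35.7 ± 4.43 TPM. Of the U2AF genes, U2af2, which binds the pyrimidine tract, stood at 99.3, 89.5, 137 and 112 TPM and U2af1, which reads the AG, at 36.8, 35.8, 63.03 and 50.2 TPM, a difference of 1.24 ± 0.14 log2. U2af1 keeps 78.3% own sequence. U2af1l4, a relative of U2af1, stood at 0.938, 2.12, 2.15 and 2.67 TPM from 10, 23, 21 and 28 counts, with 57.6% own sequence, and U2af1 exceeded it by 3.999 ± 0.38 log2.

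**Figure D3:**
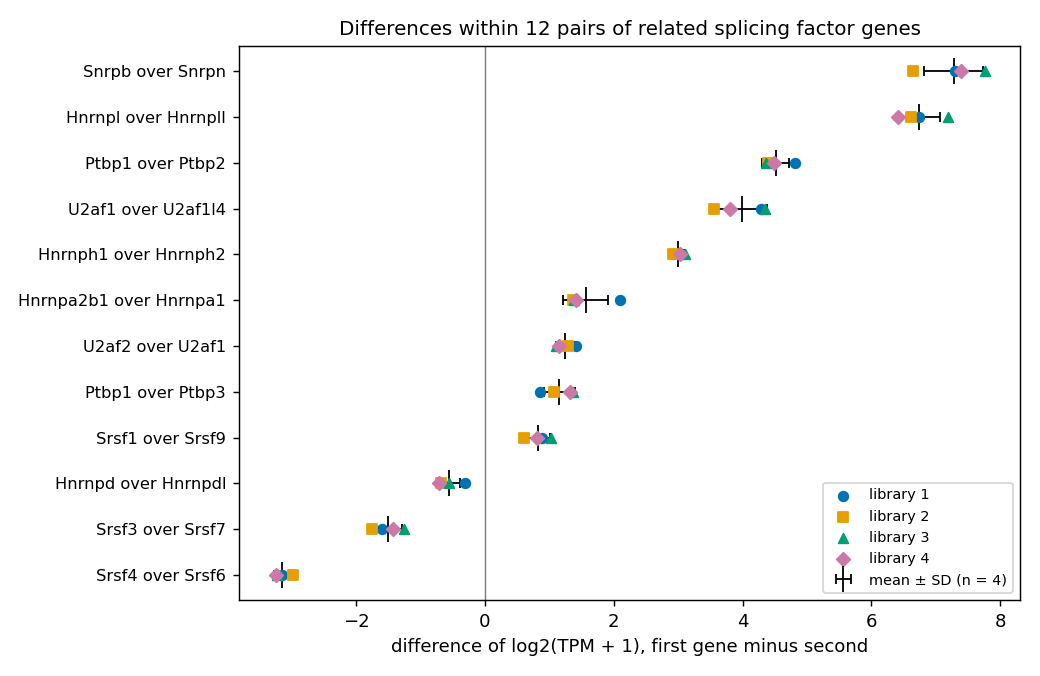
Difference of log2(TPM + 1), first gene minus second (x axis), in each of 4 libraries for 12 pairs of related genes, with mean ± SD. The libraries of a pair lie on the same side of 0 in all 12 pairs, from -3.15 for Srsf4 over Srsf6 to 7.27 for Snrpb over Snrpn.

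All 12 pairs kept 1 direction in 4 of 4 libraries. The two-sided exact sign-flip permutation test over libraries gave p = 0.125 for each pair, also after Benjamini-Hochberg adjustment over the 12, which is the smallest p that 4 libraries allow, so no pair can pass 0.05 in this design. In the order of all 58 genes by mean TPM, only 17 of the 57 pairs of neighbours stood in the same order in every library, so that most neighbouring places do not differ beyond the spread. Of the 10 highest genes, 7 were among the 10 highest of every library, namely Hnrnpab, Hnrnpa0, Hnrnpa2b1, Hnrnph1, Ptbp1, Snrpb and Srsf2.

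Promoters were compared as a feature that the choice of genes did not use. RefSeq windows (GRCm38.p6) matched 50 of the 58 genes by symbol. Over the 250 bases before the start, using the first window listed where a gene had more than 1, the median splicing factor gene had 19 CG dinucleotides, against 6 over 27025 genes. At least 10 were found in 47 of the 50 (94%), against 38.2% of all genes. All genes here are those with a window, whether expressed in these cells or not. The share among expressed genes was not computed. The letters TATAAA, on either strand, were found in 5 of the 50 (10%), against 12.97% of all genes. The windows of Ptbp1 and Ptbp2 are shown because both are rich in CG, at 17 and 23, although their mRNA levels lie far apart, and that of Snrpn because it has the fewest, 2, in the first of its 4 windows. That Snrpn window does not adjoin the span of Snrpn in GENCODE M21, 59982495 to 60140219. Its other windows are not shown, so the count of 2 holds for this start alone. Capitals mark CG.
Ptbp1 (chr10:79854182-79854431, plus strand): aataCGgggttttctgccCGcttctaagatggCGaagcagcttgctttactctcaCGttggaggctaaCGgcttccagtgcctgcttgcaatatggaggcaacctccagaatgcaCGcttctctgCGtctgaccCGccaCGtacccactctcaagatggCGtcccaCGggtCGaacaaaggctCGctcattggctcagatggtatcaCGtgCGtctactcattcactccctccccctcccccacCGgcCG
Ptbp2 (chr3:119783389-119783638, minus strand): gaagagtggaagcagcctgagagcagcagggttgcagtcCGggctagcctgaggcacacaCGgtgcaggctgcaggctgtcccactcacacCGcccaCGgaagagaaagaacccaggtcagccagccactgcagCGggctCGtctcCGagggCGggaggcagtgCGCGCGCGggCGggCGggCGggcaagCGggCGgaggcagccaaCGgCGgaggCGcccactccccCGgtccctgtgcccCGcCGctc
Snrpn (chr7:60450178-60450427, minus strand): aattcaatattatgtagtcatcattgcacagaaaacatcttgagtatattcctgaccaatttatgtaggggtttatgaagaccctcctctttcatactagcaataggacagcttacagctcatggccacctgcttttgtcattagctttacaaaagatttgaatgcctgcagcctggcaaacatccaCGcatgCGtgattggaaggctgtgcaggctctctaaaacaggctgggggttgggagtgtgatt

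Whether any splicing factor gene varied between libraries more than its level would give was tested gene by gene over the whole table. None of the 56 tested did at a Benjamini-Hochberg adjusted p under 0.05 in edgeR's quasi-likelihood test, against 0.00835% of all genes tested. At an unadjusted p under 0.05 there were also 0 of the 56, against 4.97% of all genes. The median coefficient of variation of normalised CPM was 10.4% in the 56 genes and 15.5% over all tested. It was not matched for level, the median TPM being 80.8 in the 56 and 13.4 over all tested. The median ratio of a gene's dispersion to the trend at its level was 0.629 in the 56 and 0.895 over all tested. In the 11 tested genes with under 80% own sequence the median ratio was 1.26 and the median coefficient of variation 13.2%. DESeq2 marked 0 of the 56 as dispersion outliers, against 1.33% of all genes.

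The 5 genes with the largest ratio of dispersion to trend were Ptbp2 (4.23, edgeR quasi-likelihood adjusted p = 0.990), Hnrnpa1 (3.45), Hnrnpll (3.39), Hnrnpdl (2.28) and U2af1 (1.90). Ptbp2 had 27.1, 33.5, 52.02 and 43.04 normalised CPM in libraries 1 to 4, and Hnrnpa1 had 90.9, 121, 150.1 and 139 normalised CPM. Both were lowest in library 1 and highest in library 3. The 5 with the smallest ratio were Sf3b5 (0.0365), Hnrnph2 (0.113), Hnrnpf (0.188), Sf3b6 (0.224) and Snrpd2 (0.241). Sf3b5 had 61.2, 59.2, 62.5 and 59.97 normalised CPM, a coefficient of variation of 2.40%.

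Of the 56 tested genes, 36 (64.3%) had their highest normalised CPM in library 3, against 27.8% of all tested genes, and 33 (58.9%) their lowest in library 2, against 26.7%. Both held for 21 genes. The median deviation from a gene's own mean was -0.04, -0.14, 0.13 and 0.07 log2 in libraries 1 to 4. Over all tested genes the medians lay within 0.01 of 0 in each library, which the scaling between libraries itself brings about. On CPM without scaling factors the medians were -0.04, -0.22, 0.17 and 0.10 log2 in the 56 genes. Over all tested genes they were then 0.02, -0.08, 0.05 and 0.04 log2. With RLE scaling in place of TMM, 35 were highest in library 3 (62.5%, against 27.4% of all tested). Under RLE 32 were lowest in library 2 (57.1%, against 25.7%). With mitochondrial and immunoglobulin counts left out of the total, 29 were highest in library 3 (51.8%, against 21.3% of all tested). On that scale 36 were lowest in library 2 (64.3%, against 27.4%). On CPM without scaling factors 40 were highest in library 3 (71.4%, against 33.1% of all tested) and 45 lowest in library 2 (80.4%, against 38.2%). These counts describe 4 libraries, with no test. The summed normalised level was 11670.1, 11091, 13477 and 12568 CPM, and library 3 stood 1.22 times above library 2. That ratio was 1.33 for Ptbp, 1.29 for Snrp, 1.26 for Hnrnp, 1.22 for U2af, 1.17 for Sf3 and 1.12 for Srsf genes, above 1 in every family. In normalised CPM the 3 genes lowest in library 3 were Srsf7, Srsf9 and Hnrnpll. The scale matters here, as Srsf7 was highest in library 3 in TPM, at 172, 176, 190.1 and 177 TPM in libraries 1 to 4.

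**Figure D4:**
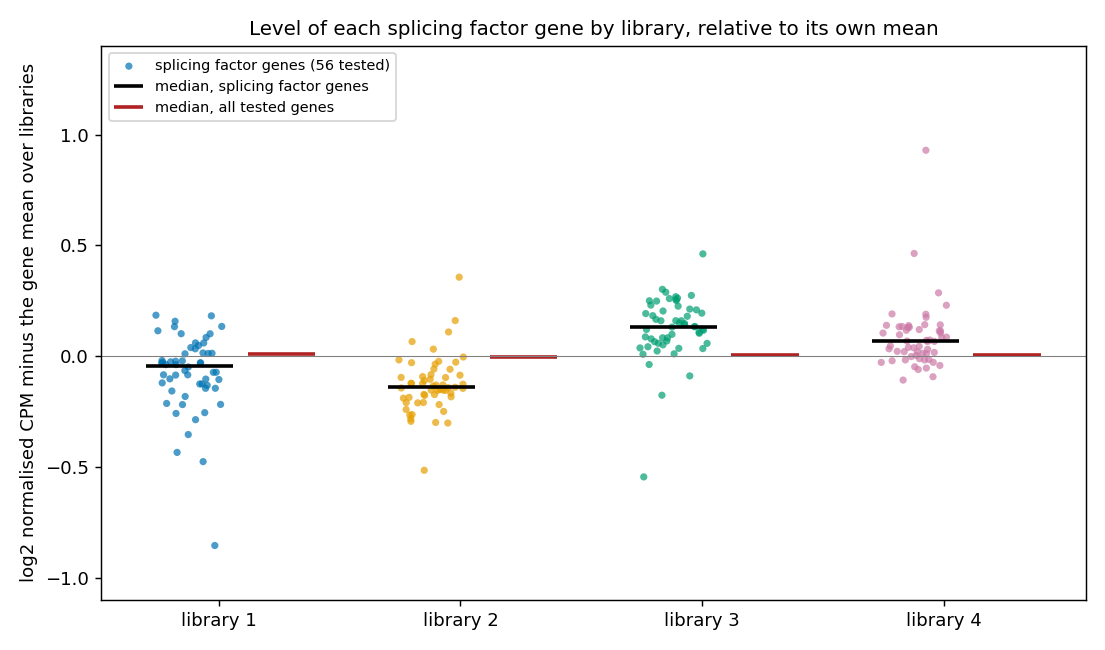
Log2 normalised CPM of each of the 56 tested splicing factor genes minus its own mean over libraries (y axis), by library. Black bars are the medians of the 56, at -0.04, -0.14, 0.13 and 0.07 in libraries 1 to 4. Red bars are those of all tested genes, which the scaling between libraries places within 0.01 of 0.

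Other measures moved with the libraries. The summed normalised level of 6 cell cycle genes was 2167, 1741, 2845 and 2171 CPM in libraries 1 to 4, highest in library 3 and lowest in library 2. Of these genes Cdc20 was highest in library 1, at 116.2, 79.6, 115.6 and 110.9 TPM, and the others in library 3. For 6 immediate early and heat shock genes the summed normalised level was 2528, 4969, 948 and 2014 CPM, highest in library 2 and lowest in library 3. The peak in library 2 was that of Jun, Fos and Egr1. The heat shock genes Hspa1a (42.1, 21.5, 4.86 and 28.4 TPM) and Hspa1b were highest in library 1. Dnajb1 was highest in library 4, at 118, 90.5, 81.8 and 130.5 TPM. Each gene of the list was lowest in library 3. The sums of plasma cell and T cell markers, given above, were lowest in library 3. Of the plasma cell markers, Irf4 was instead lowest in library 1, at 90.8, 164, 163 and 157 TPM. The other plasma cell markers were each lowest in library 3. Mitochondrial genes took 20.6, 23.3, 18.1 and 19.8% of counts. Library 3 was also the one with Ddx3y, and had 6 counts of Xist against at least 8689 in the others. The part of each of these in the levels of splicing factors was not tested.

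The rest of the splicing machinery was also present, with a median of log2(TPM + 1) of 5.47 ± 0.25 in other spliceosome genes, 5.34 ± 0.20 in other splicing regulators and 5.26 ± 0.24 in the kinases of SR proteins. All 57 of the other spliceosome genes exceeded 1 TPM in every library, led by the helicase gene Ddx39b (302 ± 63.2 TPM), Lsm4 (258 ± 51.6 TPM) and Sf1, the branch point binding protein (258 ± 73.1 TPM), with Zrsr1 lowest (5.53 ± 0.858 TPM). Of 34 other splicing regulators 28 did, led by Sfpq (263 ± 35.9 TPM), Rbm39 (216 ± 54.5 TPM) and Raly (137 ± 26.5 TPM), whereas Rbfox1, a splicing regulator of neurons and muscle, was lowest, at 0.00897 ± 0.0179 TPM. All 8 SR protein kinase genes did, from Srpk3 (127 ± 31.1 TPM), Clk1 (114 ± 30.6 TPM) and Clk2 (78.2 ± 20.7 TPM) to Srpk2 (9.44 ± 1.01 TPM). In edgeR's quasi-likelihood test none of the 57, 28 and 8 genes tested in these lists passed, adjusted or unadjusted, against the 0.00835% and 4.97% of all tested genes. Library 3 was the highest for 38 of the 57 spliceosome genes, 15 of the 28 regulators and 6 of the 8 kinases. These are 66.7%, 53.6% and 75%, against 27.8% of all tested genes. With mitochondrial and immunoglobulin counts left out of the total the numbers were 30 (52.6%), 12 (42.9%) and 4 (50%), against 21.3%. All 8 kinases were lowest in library 1, against 28.4% of all tested genes. With those counts left out 7 of the 8 (87.5%) were, against 25.6%.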

How the data were processed

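The authors deposited, per the file headers, raw counts of reads for each gene in 1 table per library, beside gene type and symbol. The submitters' processing notes name mm10, featureCounts 1.6.0, STAR 2.5.2b and FastQC. Strand setting, handling of multi-mapping reads and annotation release are not given in the sources used here. Per the labels, libraries were poly(A) selected, with single-end reads of 50 nt on DNBseq and 20 M reads planned.

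TPM was computed from the counts and the union of exons in GENCODE M21, which matched 37536 of 37646 genes and all 58 splicing factors. A length limited to 50-base stretches in no other gene was added after the data were seen. Variation was tested on counts in R 4.3.3 by edgeR 4.0.16 (TMM, filterByExpr, intercept-only glmQLFit, dispersion over trend against F, Benjamini-Hochberg at 0.05 over all genes). DESeq2 1.42.0, robust fitting, RLE, other filters, pseudocounts and lengths, and each library left out in turn were alternatives. The variation test was tested on simulated counts. Differences between genes used log2(TPM + 1) and exact sign-flip permutations. With 3 counts as the limit of detection, libraries reach 0.205 to 0.218 CPM.

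Members, lists and pairs were chosen with earlier results of these data known. Genes given with values were the members of 12 pairs, the 3 highest and the lowest of each family or list, and the 5 with the largest and the 5 with the smallest dispersion over trend. Other members are accounted for by their means. Remaining steps ran in Python 3.11.15.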

Additional observations from a re-analysis of the deposited data

Results flagged for a closer look

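Of 75 sets of 4 libraries examined (56 genes, 12 pairs and 7 family shares), 3 held a library whose gap to its nearest neighbour was more than 0.829 of the whole range. Chance flags about 1 in 20. Hnrnpm had 313, 259.6, 319 and 315 normalised CPM in libraries 1 to 4, with library 2 low and a gap of 0.901 of the range. Sf3b3 had 374, 374, 465 and 380.3 normalised CPM, with library 3 high and a gap of 0.931. The difference of Hnrnpa2b1 minus Hnrnpa1 was 2.09, 1.37, 1.38 and 1.41 log2, with library 1 high and a gap of 0.944. Without library 1 it was 1.39.

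Among rows whose symbol fits the pattern but which are processed pseudogenes, 4 of 6 had more than 3 counts in some library. The highest count was 8 for Srsf3-ps, 7 for Hnrnpa1l2-ps2, 6 for Hnrnpa1l2-ps and 5 for Snrpert. These rows entered no level above, and their sequence is shared in large part with other genes.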

How the results depend on the processing

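The count of splicing factor genes that varied between libraries was 0 under every alternative run. Over all genes it was 1 in the test as reported, 262 without a filter, 63 with robust fitting, 159 as DESeq2 dispersion outliers and between 0 (without library 2) and 19 (without library 3) with 1 library left out, with 3 without library 4. Of 96 recomputed pair differences 95 kept their direction; Hnrnpd over Hnrnpdl turned to 0.042 without gene length. Sizes depend more on length. Without it Srsf1 over Srsf9 was 2.61, Hnrnpa2b1 over Hnrnpa1 2.63, Ptbp1 over Ptbp2 3.67, Ptbp1 over Ptbp3 0.51, Srsf3 over Srsf7 -0.37 and U2af2 over U2af1 1.90. With the longest transcript Hnrnpa2b1 over Hnrnpa1 was 2.39, Hnrnpd over Hnrnpdl -1.26 and U2af1 over U2af1l4 4.60. With own sequence Srsf4 over Srsf6 was -2.44, and with a pseudocount of 0.1 Hnrnpl over Hnrnpll was 8.07 and Snrpb over Snrpn 8.47. With mitochondrial and immunoglobulin genes out of the total, family shares were 1.62% (all), 0.354% (Srsf), 0.737% (Hnrnp), 0.0910% (Snrp), 0.284% (Sf3), 0.0335% (U2af) and 0.117% (Ptbp). The median level of 6.27 log2(TPM + 1) was 5.81 as a mean, 6.62 with the longest transcript and 7.29 as log2(CPM + 1). Other spliceosome genes, at 5.47, stood at 6.35 without length. Other regulators, at 5.34, stood at 4.42 as a mean, 5.75 with the longest transcript and 7.01 without length. Levels of 20 of the 58 genes moved by more than 1.5 times with the longest transcript, up to 2.35 times for Srsf11, and of 3 with own sequence (Snrpf, Hnrnpf and Sf3b4). The alternatives' own construction sets these shifts. No paired analysis was possible because there is 1 group. Depth limits Srsf12 and Snrpn, and gene counts hold no isoforms, so transcripts with early stop codons that SR and hnRNP genes are known to make are counted with the rest.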
